A study of Rattus norvegicus with 20 samples.

Results

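The 10 genes described here form much of the core circadian clock, and they were followed in muscle of the calf (gastrocnemius) and in white fat of the abdomen of the same rats. The positive arm is Arntl (ENSRNOG00000014448), Clock (ENSRNOG00000002175) and Npas2 (ENSRNOG00000013408). The negative arm is Per1 (ENSRNOG00000007387), Per2 (ENSRNOG00000020254), Per3 (ENSRNOG00000018413), Nr1d1 (ENSRNOG00000009329) and Nr1d2 (ENSRNOG00000046912), and the outputs are Dbp (ENSRNOG00000021027) and Tef (ENSRNOG00000019383). They are 10 of the 32883 genes in the deposited count table, and all 10 were among the 13806 genes that passed the filter on low counts. The genes were chosen by identifier, with their levels in muscle against adipose tissue already known from these data, and the symbols came with the list, since the files pair no identifier with a name. The difference between the tissues is therefore described and supports nothing.

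The strain was Fischer 344 x Brown Norway, the rats were 8 months old and supplied by the National Institute on Aging, and none was described as treated. They had 2 weeks to adapt to a reversed light cycle, with lights off at 8 in the morning and on at 8 in the evening. The hour at which tissue was taken is not given in the sources used here. Each of 10 rats gave 1 muscle and 1 adipose library, and libraries with the same number came from the same animal. The labels give the sex of each sample as male, whereas the design text speaks of 5 males and 5 females, so sex was not used. Muscle libraries held 8446548 to 20141701 counts and adipose libraries 11067641 to 25904168. The muscle library of animal 2 had a mean r of 0.925 with the other muscle libraries over all genes tested, next to 0.957 for the nearest one. The adipose library of animal 4 had the lowest mean r of all 20 libraries with those of its tissue, 0.890, next to 0.909, and the highest TMM factor, 1.98. Many results that rest on animals 2 and 4 are given without them as well. Values given for all 10 animals alone may still depend on them. Defining markers of the tissues could not be looked up by name. These are bulk samples, in which fewer cells of a type and less RNA per cell cannot be told apart.

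The clock is a feedback loop of transcription in nearly every cell. BMAL1, the product of Arntl, pairs with CLOCK or NPAS2, binds E-boxes and activates the Per genes, Nr1d1, Nr1d2, Dbp and Tef. PER proteins then inhibit the activators, and the REV-ERB receptors, encoded by Nr1d1 and Nr1d2, repress Arntl through ROR response elements. Arntl thus peaks at about the opposite phase to Nr1d1 and Dbp, and muscle and fat each hold such a clock.

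The promoter windows below are shown because they hold the elements through which the loop is known to run, in genes that varied together or in opposition. RefSeq windows of assembly GRCr8, from 250 bases before to 50 bases after an annotated start, were found for all 10 genes, with 12 windows in all, and Arntl is listed there as Bmal1. They were searched on both strands for the E-box CACGTG, the D-box TTATGTAA or TTACGTAA, and the ROR response element. An E-box was in 2 of the 12 windows, from 2 of the 10 genes, and in 6.42% of all 33469 windows. A D-box was in 1 of the 12 windows and in 1.01% of all windows, and a ROR response element in 1 of the 12 and in 0.356%. Of the pair of windows listed for Nr1d1, one held the E-box. No motif searched overlapped another. Each stretch is 100 bases long, ends before the annotated start, and has the motif in capitals.
Arntl, ROR response element 20 to 10 bases before the start, GRCr8 chr1:176766228-176766327, plus strand: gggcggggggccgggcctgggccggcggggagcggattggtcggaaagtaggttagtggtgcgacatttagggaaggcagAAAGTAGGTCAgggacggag
Nr1d1, E-box 191 to 186 bases before the start, GRCr8 chr10:84229593-84229692, minus strand: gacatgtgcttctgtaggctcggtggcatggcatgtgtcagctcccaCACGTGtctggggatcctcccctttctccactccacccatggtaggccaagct
Tef, E-box 198 to 193 bases before the start, GRCr8 chr7:115206582-115206681, plus strand: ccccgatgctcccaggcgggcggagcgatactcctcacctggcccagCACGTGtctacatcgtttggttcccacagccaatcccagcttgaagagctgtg
Per2, D-box 192 to 185 bases before the start, GRCr8 chr9:99497132-99497231, minus strand: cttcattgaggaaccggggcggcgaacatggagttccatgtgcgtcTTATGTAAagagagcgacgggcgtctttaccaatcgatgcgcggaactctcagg
A match is a run of letters and not a measured binding site, and windows without one say nothing about more distant elements.

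The first comparison asked at what level each gene stood in the tissues. Levels are in CPM, reads relative to library size after scaling by a TMM factor, which trims genes that differ most between libraries. They compare libraries for 1 gene, and without transcript lengths they do not compare genes. The log2 fold changes and SEs come from fits that ignore which libraries share an animal, except where a block is named.

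Arntl, the activator at the centre of the loop, was low in counts and varied widely. In muscle its level was 2.19 CPM at the lowest, 5.11 at the median and 21.1 at the highest, and in adipose tissue 1.62, 4.28 and 11.1 CPM. Both tissues had their lowest value in animal 10, and their highest values in animals 2 and 4. The tissues overlapped. The muscle library was the higher in 10 of 10 animals with TMM factors and in 1 of 10 with library totals. The log2 fold change of muscle over adipose tissue was 0.70 (SE 0.46), and 0.59 (SE 0.15) with the animal as a block, where the edgeR adjusted p of 0.165 became 0.0026.

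Clock, a partner of BMAL1 that varies little over the day in many tissues, was between 36.2 and 62.5 CPM in muscle, with a median of 42.6. In adipose tissue it was between 23.3 and 54.3 CPM, with a median of 33.6. The highest muscle value was that of animal 2 and the highest adipose value that of animal 4, and the tissues overlapped. Its log2 fold change was 0.25 (SE 0.15), and 0.29 (SE 0.14) with the animal as a block. Npas2, the other partner, was near the limit of detection, with 9 to 71 reads in muscle and 16 to 287 in adipose tissue. For 9 reads the exact 95% Poisson interval is 4.12 to 17.1 reads, which covers counting error only. Npas2 stood at 0.857 to 5.77 CPM in muscle, with a median of 1.68, and at 0.645 to 10.7 CPM in adipose tissue, with a median of 1.08. The highest adipose value, in animal 4, was far above the next, 2.71 CPM in animal 2. With TMM factors the muscle library was the higher in 9 of 10 animals, animal 4 being the exception, and with library totals in 3 of 10. The log2 fold change was 0.03 (SE 0.51) over all animals and 0.97 (SE 0.36) without animal 4. With the animal as a block, over all animals, it was 0.53 (SE 0.39).

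The Per genes encode the repressors that bind the activators. Per1, which also responds acutely to hormones and feeding, was between 46.2 and 196 CPM in muscle, with a median of 129, and between 69.4 and 169 CPM in adipose tissue, with a median of 120. Animals 1 and 4 had the lowest values in both tissues. Per2 had a median of 81.8 CPM in muscle (62.4 to 114) and of 103 CPM in adipose tissue (69.3 to 144). Per2 was the lower in muscle in 8 of 10 animals with TMM factors and in 10 of 10 with library totals. Per3 had a median of 104 CPM in muscle (66.1 to 123) and of 89.8 CPM in adipose tissue (35.4 to 131). All 3 genes overlapped between the tissues. Their log2 fold changes were 0.01 (SE 0.22) for Per1, -0.28 (SE 0.15) for Per2 and 0.12 (SE 0.18) for Per3. With the animal as a block the edgeR adjusted p of Per2 went from 0.0956 to 0.049, at a log2 fold change of -0.27 (SE 0.12). The block gave -0.04 (SE 0.11) for Per1 and 0.18 (SE 0.11) for Per3.

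Nr1d1 and Nr1d2 encode REV-ERB alpha and beta. Nr1d1 was between 35.3 and 111 CPM in muscle, with a median of 86.8. In adipose tissue it was between 9.04 and 137 CPM, with a median of 80.6. Animals 2 and 4 were lowest in both tissues, and the adipose values reached both lower and higher than those of muscle. Nr1d2 was between 78.0 and 138 CPM in muscle, with a median of 115, and between 11.4 and 63.1 CPM in adipose tissue, with a median of 48.0. It was the one clock gene of the 10 whose muscle and adipose libraries did not overlap, where 45.5% of all genes tested had no overlap. The log2 fold change was 0.04 (SE 0.40) for Nr1d1 and 1.33 (SE 0.21) for Nr1d2. With the animal as a block these were 0.345 (SE 0.26) and 1.42 (SE 0.16).

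Dbp and Tef encode activators that bind D-boxes in target genes. Dbp had nearly the same levels in both tissues on this scale, with 41.1, 128 and 232 CPM in muscle and 32.2, 131 and 227 CPM in adipose tissue as the lowest, median and highest values. Animals 2 and 4 were lowest in both. Its log2 fold change was -0.01 (SE 0.36), and 0.0461 (SE 0.09) with the animal as a block. Tef had a median of 244 CPM in muscle (81.5 to 314) and of 82.8 CPM in adipose tissue (54.0 to 105). The lowest muscle value was that of animal 2, and without it the tissues would not overlap, the next muscle value being 180 CPM. Tef was the higher in muscle in 10 of 10 animals with TMM factors and in 6 of 10 with library totals. Its log2 fold change with TMM factors was 1.52 (SE 0.18), and 1.47 (SE 0.14) with the animal as a block.

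**Figure D1:**
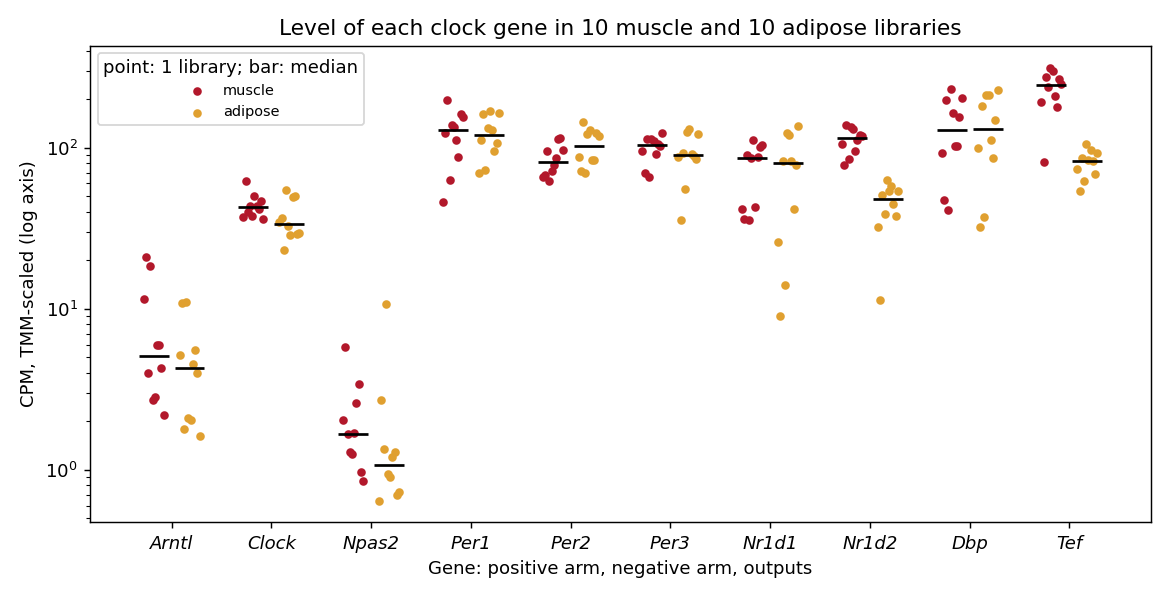
TMM-scaled CPM of each clock gene on a log axis; each point is 1 library of muscle (red) or adipose tissue (yellow), and bars are medians over 10 libraries. Tef and Nr1d2 stand higher in muscle, with medians of 244 against 82.8 and 115 against 48.0 CPM, while the medians of Dbp, 128 and 131 CPM, lie close together.

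On the scale of TMM factors, 2 of the 10 genes, Tef and Nr1d2, were past an edgeR adjusted p of 0.05, both higher in muscle, where 79.8% of all genes tested passed (37.6% as higher in muscle). With the animal as a block, 4 of the 10 were past it, where 79.6% of all genes tested were. These were Tef, Nr1d2 and Arntl as higher in muscle and Per2 as lower. Without animal 4, and with no block, 4 were past it, where 79.4% of all genes tested were. These were Tef, Nr1d2, Clock and Npas2, all as higher in muscle. The median log2 fold change of the 10 was 0.08, beside -0.09 over all genes tested. The directions depended on the scaling, because TMM factors averaged 0.639 in muscle and 1.58 in adipose tissue. With library totals alone the median over all genes tested was -1.39 and that of the 10 genes -1.22. On that scale 7 of the 10, namely Dbp, Per1, Per2, Per3, Nr1d1, Clock and Npas2, were past the same threshold as lower in muscle. Tef, Nr1d2 and Arntl were not past it. Of all 13806 genes tested, 86.4% were past it on that scale, 10240 of them as lower in muscle. Dbp then had a log2 fold change of -1.31, Tef of 0.20 and Nr1d2 of 0.02, and Arntl one of -0.61.

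**Figure D2:**
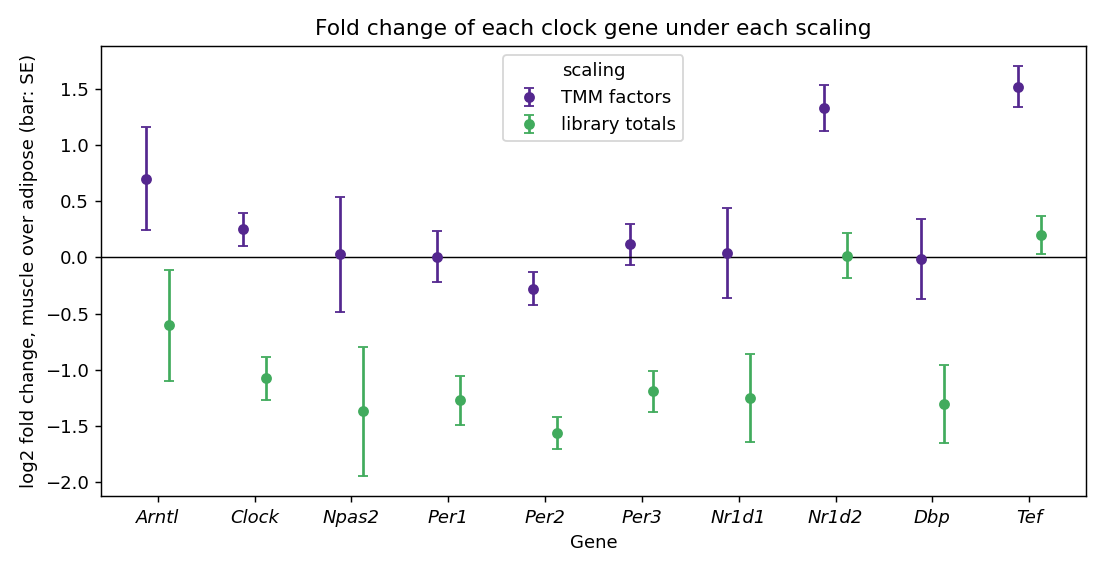
Log2 fold change of muscle over adipose tissue for each gene from edgeR, with its SE, under TMM factors and under library totals. Tef (1.52 and 0.20) and Nr1d2 (1.33 and 0.02) lie above the other genes under both scalings. All 10 genes, these included, lie lower under library totals than under TMM factors.

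Ratios between genes of the same library do not depend on the scaling, apart from the prior count of 2 that is added before taking logs. Relative to Dbp, Tef was 1.42 ± 0.60 higher in muscle than in adipose tissue on the log2 scale and Nr1d2 1.38 ± 0.44 (SD, n = 10), and both differences were above 0 in 10 of 10 animals. The same difference was -0.09 ± 0.32 for Per1, -0.31 ± 0.35 for Per2, 0.13 ± 0.17 for Per3 and 0.31 ± 0.75 for Nr1d1 (SD, n = 10). For the positive arm it was 0.53 ± 0.42 for Arntl, 0.24 ± 0.51 for Clock and 0.36 ± 1.31 for Npas2 (SD, n = 10). The difference exceeded its SD over animals for Tef, Nr1d2 and Arntl, and was smaller than it for the other 6 genes.

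The second comparison asked how much each gene varied between animals. Arntl and Dbp varied strongly in both tissues: Arntl spanned 9.19-fold in muscle and 6.43-fold in adipose tissue, and Dbp 5.64-fold and 7.005-fold. Their SD of log2 CPM was 1.13 and 0.99 for Arntl and 0.86 and 1.02 for Dbp, beside a median over all genes tested of 0.35 in muscle and 0.41 in adipose tissue. With all 10 animals, at least 90.9% of all genes tested had a lower SD than either gene in either tissue. Animals 2 and 4 widened these spreads. Without both, Dbp ran from 92.5 to 232 CPM in muscle and from 86.7 to 227 CPM in adipose tissue. Arntl then ran from 2.19 to 11.6 CPM in muscle and from 1.62 to 5.52 CPM in adipose tissue. The SDs, and the share of genes below them, were not computed without both animals. Npas2 had SDs of 0.80 and 1.151, at the low counts given above. Without animal 4 its SD in adipose tissue was 0.59.

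Clock spanned 1.73-fold in muscle with an SD of 0.24 (0.16 without animal 2), and spanned 2.33-fold with an SD of 0.40 in adipose tissue. Per2 was similar, with SDs of 0.32 in muscle and 0.38 in adipose tissue. Nr1d1 spanned 3.14-fold in muscle and, from 9.04 to 137 CPM, far more in adipose tissue, where it spanned 9.76-fold without animal 2, with SDs of 0.69 and 1.38. Without animals 2 and 4 its adipose values ran from 26.1 to 137 CPM. Nr1d2 spanned 1.77-fold and 5.49-fold, and Per3 1.86-fold and 3.70-fold. The adipose ranges of both rest on animal 2, without which they were 1.95-fold for Nr1d2 and 2.35-fold for Per3. Per1 spanned 4.24-fold in muscle and 2.43-fold in adipose tissue. Tef spanned 3.85-fold in muscle, but 1.75-fold without animal 2, and 1.94-fold in adipose tissue.

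The difference in spread was tested on the absolute deviation from the tissue median, muscle minus adipose tissue, by flipping the sign of each animal's difference in all ways (exact permutation test, two-sided). For Nr1d1 the mean difference was -0.48 on the log2 scale, larger in adipose tissue in 7 of 10 animals (p = 0.0879, adjusted over all genes tested 0.550). For Nr1d2 it was -0.23 (exact p = 0.115) and for Per3 -0.15 (exact p = 0.1504), each larger in adipose tissue in 6 of 10 animals. Without animal 2 the difference was -0.32 for Nr1d1, -0.0823 for Nr1d2 and -0.085 for Per3. Without animal 4 it was -0.39 for Nr1d1, -0.26 for Nr1d2 and -0.17 for Per3. None of the 10 genes had an unadjusted p below 0.05, where 9.99% of all genes tested did. After Benjamini-Hochberg adjustment over all genes, 0 of 13806 did. The smallest p this exact test can give is 0.001953, so no gene could pass alone after that adjustment, and this 0 says little. At 10 animals the test does not separate these spreads.

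The third comparison asked whether an animal that was high in 1 tissue was also high in the other. For Dbp and Arntl the order of the animals was nearly the same in muscle and fat. Dbp had r = 0.976 and rho = 0.952 between the tissues over 10 animals on the log2 CPM scale, and r exceeded this value in 0 of the 13806 genes tested. Arntl had r = 0.942 and rho = 0.903, and 3 genes had a higher r. Over all genes tested the median r was 0.09, and 90% of them lay between -0.53 and 0.63.

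**Figure D3:**
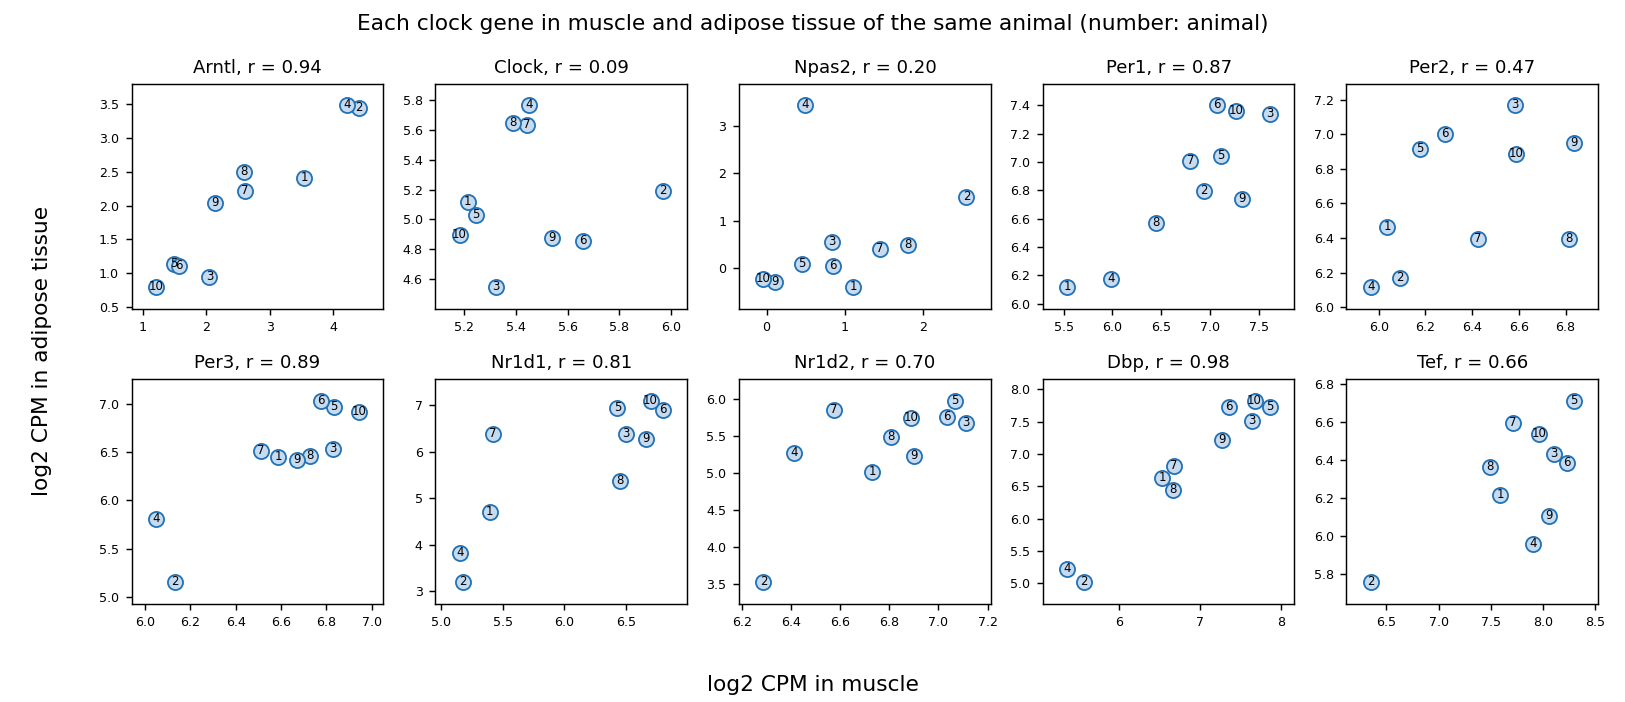
Log2 CPM in muscle (x) against adipose tissue (y) for each clock gene; each numbered point is 1 animal. Dbp (r = 0.976) and Arntl (r = 0.942) follow a line on which animals 2 and 4 lie at one end and animals 5 and 10 near the other, while Clock (r = 0.090) shows no common order.

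In the negative arm Per3 had r = 0.886 (rho = 0.818), Per1 0.873 (rho = 0.697), Nr1d1 0.811 (rho = 0.721), Nr1d2 0.705 (rho = 0.527) and Per2 0.465 (rho = 0.479). Tef had r = 0.655 (rho = 0.552). Of the partners of BMAL1, Clock had r = 0.090 (rho = 0.091) and Npas2 r = 0.204 (rho = 0.382). Without animal 4, whose adipose library was far above the others, Npas2 had r = 0.822.

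The permutation p of r (two-sided, 100000 resamples) was 6e-05 for Dbp, 8e-05 for Arntl, 0.00099 for Per1, 0.00157 for Per3, 0.00522 for Nr1d1, 0.014 for Nr1d2 and 0.0343 for Tef. It was 0.172 for Per2, 0.562 for Npas2 and 0.813 for Clock. For rho the permutation p was 0.00015 for Dbp, 0.00083 for Arntl, 0.00603 for Per3, 0.0227 for Nr1d1 and 0.0304 for Per1. It was 0.104 for Tef, 0.123 for Nr1d2, 0.166 for Per2, 0.276 for Npas2 and 0.809 for Clock. Thus 7 of the 10 genes had an unadjusted permutation p of r below 0.05, where 6.82% of all genes tested did. These relations were named with the list, so the p-values describe them. Adjusted over all 13806 genes, the smallest value was 0.207, shared by Dbp and Arntl, and 0.0% of all genes were below 0.05.

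Animals 2 and 4 stood apart at the low end of Dbp and the high end of Arntl. Without the 2 animals farthest from the muscle median, r was 0.932 for Dbp and 0.851 for Arntl, each without animals 2 and 4. For Per3 it was 0.655 and for Nr1d1 0.597 without the same animals, and for Per1 0.621 without animals 1 and 4. For Nr1d2 it fell to 0.301 without animals 2 and 4 and for Tef to 0.289 without animals 2 and 8, so those relations rest largely on the animals left out. Leaving out animal 2 alone gave 0.433 for Nr1d2 and 0.237 for Tef. For Per2 it was 0.686 without animals 8 and 9, for Clock 0.380 without animals 2 and 6 and for Npas2 -0.005 without animals 2 and 8. With library totals in place of TMM factors r was 0.908 for Dbp and 0.912 for Arntl, but 0.558 for Per3, 0.421 for Nr1d2 and 0.069 for Per2.

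Depth was compared in the same way. The total counts of muscle and adipose libraries had r = -0.204 (permutation p = 0.512) and rho = -0.406 (permutation p = 0.246) over animals, and their TMM factors r = 0.013 (permutation p = 0.970) and rho = 0.139 (permutation p = 0.708). The level of Dbp had r = 0.260 with the total count in muscle and 0.429 in adipose tissue, and -0.550 and -0.427 with the TMM factor. For Arntl these values were -0.151, -0.318, 0.586 and 0.488. In rho these 8 relations ran from -0.285 to 0.491. None of the 10 relations had a permutation p, adjusted over these 10 alone, below 0.4662. Several values of r moved without the 2 animals farthest from the median of the factor. The TMM factors of the 2 tissues then had r = 0.566, with the muscle factor setting the animals left out. With the muscle factor, r was then -0.217 for Dbp and 0.017 for Arntl. With the adipose factor it was 0.225 and -0.241. These values were not tested.

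**Figure D4:**
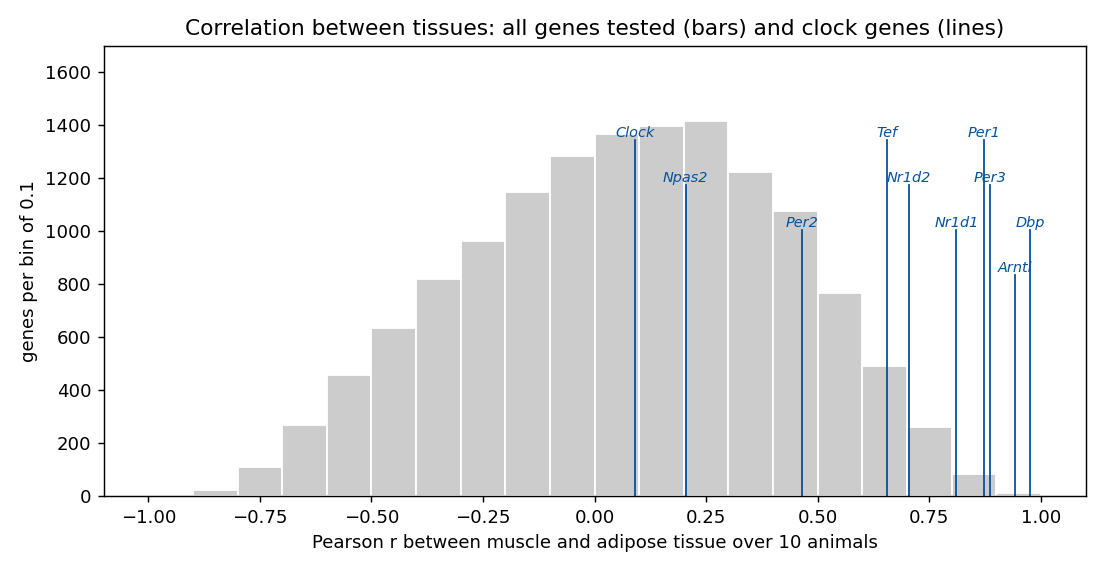
Number of genes (y) by Pearson r between muscle and adipose tissue over 10 animals (x), for all 13806 genes tested in bins of 0.1, with a line for each clock gene. Clock and Npas2 fall in the middle of the genes, and Dbp and Arntl at the right edge.

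The last comparison asked how the genes varied with each other within a tissue, over all 45 pairs in each. All 21 pairs within the negative arm and the outputs had r above 0 in both tissues, with a median of 0.634 in muscle and 0.815 in adipose tissue. Pairs of a positive-arm gene with one of these 7 genes had r below 0 in 20 of 21 cases in muscle and in 21 of 21 in adipose tissue, with medians of -0.557 and -0.672. The exception was Per1 with Clock in muscle, at r = 0.1495. Without the 2 animals farthest from the median of the first gene of each pair, mostly animals 2 and 4, 18 of 21 were below 0 in each tissue. The 21 pairs within the negative arm and the outputs stayed above 0 without those animals. Their median was then 0.705 in muscle and 0.595 in adipose tissue, and their smallest r was 0.0188 and 0.0368. All 7 pairs of Arntl kept their sign in both tissues, whereas 4 of 7 pairs of Clock in muscle and 1 of 7 in adipose tissue changed sign, as did 2 of 7 pairs of Npas2 in adipose tissue. The 3 pairs within the positive arm had r between 0.465 and 0.599 in muscle, and between 0.567 and 0.723 in fat, and 1 of the 3 in muscle fell below 0 without those animals. The sign of r was the same in muscle and adipose tissue for 44 of 45 pairs.

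Of the positive arm, Arntl had the most negative median r with these genes in both tissues. With Dbp its r was -0.955 in muscle (rho = -0.952, permutation p = 5e-05 for r and 0.00014 for rho) and -0.966 in adipose tissue (rho = -0.939, permutation p = 3e-05 for r and 0.00029 for rho). Without animals 2 and 4 these values of r were -0.880 and -0.952. With Nr1d1 it was -0.898 in muscle (rho = -0.830) and -0.922 in adipose tissue (rho = -0.867), with a permutation p of r of 0.00017 and 0.00014. With Per3 it was -0.927 (rho = -0.952) and -0.870 (rho = -0.806), with a permutation p of r of 0.00017 and 0.00067. Without animals 2 and 4, Arntl had r = -0.7965 and -0.809 with Nr1d1, and -0.810 and -0.765 with Per3. Its weakest relation in muscle was with Per2, at -0.557 (rho = -0.515, permutation p of r = 0.0982), a pair that had r = -0.920 in adipose tissue (rho = -0.830, permutation p of r = 0.00014). The difference in r between the tissues was not tested.

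Clock and Npas2 had less negative values than Arntl, with medians of r over the 7 genes of -0.519 and -0.512 in muscle and -0.497 and -0.638 in adipose tissue, beside -0.877 and -0.870 for Arntl. Without the 2 animals farthest from the median, these medians were -0.134 for Clock and -0.516 for Npas2 in muscle, -0.402 and -0.133 in adipose tissue, and -0.723 and -0.802 for Arntl. Npas2 with Dbp in adipose tissue went from -0.772 to -0.172, and Clock with Tef in muscle from -0.625 to 0.271. Npas2 with Tef had r = -0.841 in muscle (rho = -0.697, permutation p of r = 0.00283), which was -0.467 without animals 2 and 8. Clock with Per2 had r = -0.166 in muscle (rho = -0.091, permutation p of r = 0.664) and -0.858 in adipose tissue (rho = -0.939, permutation p of r = 0.00144). Among the negative arm and outputs, Dbp with Per3 had r = 0.955 in muscle and 0.936 in adipose tissue, Dbp with Nr1d1 0.858 and 0.965, and Dbp with Nr1d2 0.935 and 0.759. Per1 with Dbp had r = 0.634 and 0.683, and Per2 with Dbp 0.515 and 0.905. Without animals 2 and 4, Dbp with Per3 had r = 0.829 in muscle and 0.806 in adipose tissue. For Dbp with Nr1d1 these values were 0.711 and 0.876, and for Dbp with Nr1d2 0.833 and 0.571. Per1 with Dbp then had 0.797 and 0.815, and Per2 with Dbp 0.0355 and 0.859.

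**Figure D5:**
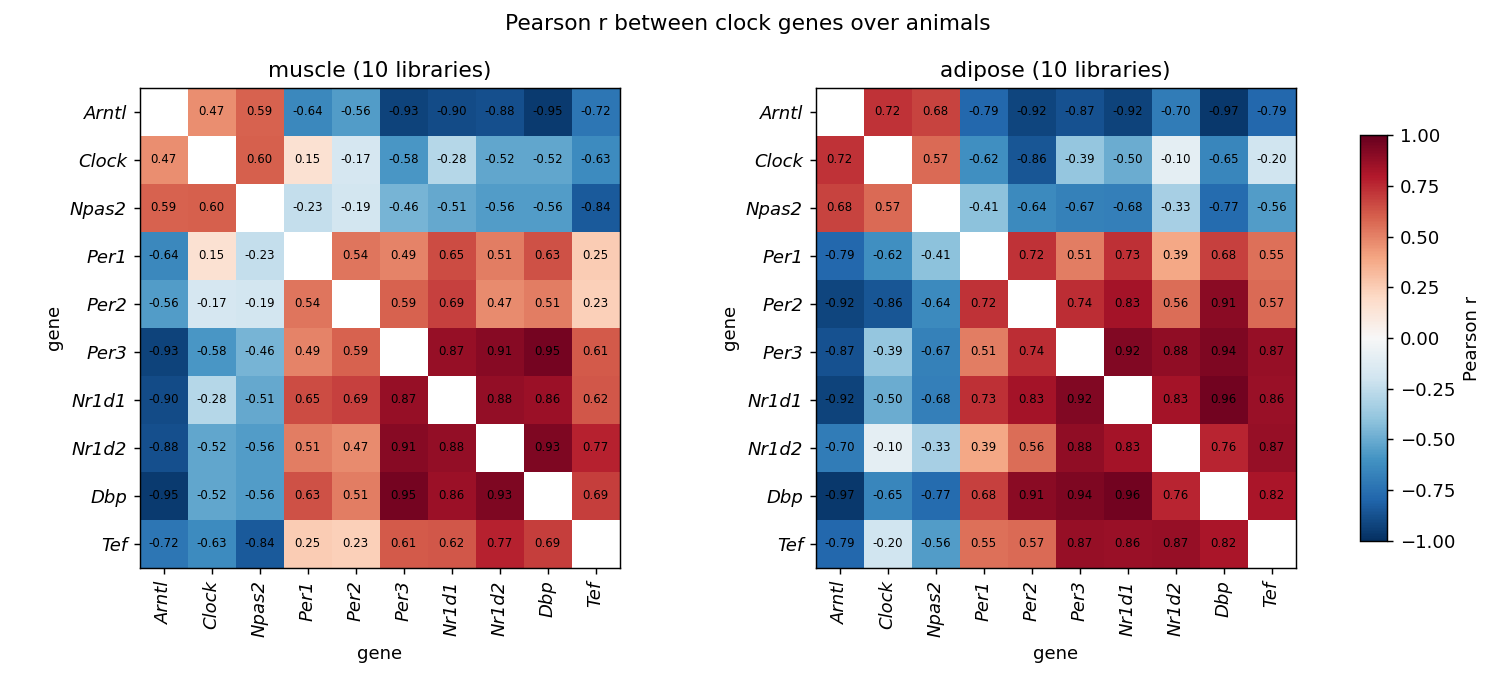
Pearson r of log2 CPM between each pair of clock genes over 10 muscle libraries (left) and 10 adipose libraries (right); red is positive and blue negative. The row of Arntl is blue against all 7 genes of the negative arm and outputs in both tissues, with Dbp at -0.955 and -0.966, and the block of those 7 genes is red.

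In muscle 19 of 45 pairs and in adipose tissue 30 of 45 had an unadjusted permutation p of r below 0.05, where 13.0% and 8.81% of all relations of a clock gene with any gene tested did. Adjusted over all those relations in both tissues, 0 pairs in muscle and 1 in adipose tissue, Per3 with Nr1d1 (r = 0.925, rho = 0.903, permutation p = 1e-05 for r, the smallest the resampling gives, and 0.00081 for rho, adjusted p of r = 0.0384), were below 0.05, where 0.063% and 0.0261% of all such relations were. By rho 0 pairs were below it in either tissue. Without animals 2 and 4, r of this pair was 0.748. Genes of 1 library share its depth and scaling. The comparison of the arms was also named with the list, so these p-values describe it. The 45 pairs of a tissue share 10 genes and the same libraries, so they are not independent.

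Since Dbp and Arntl moved in opposition, the log2 difference between them within a library placed the animals along a common line. In muscle it was lowest in animals 4 and 2, at most 1.17, then 2.99 in animal 1, between 4.07 and 5.79 in animals 3, 6, 7, 8 and 9, and 6.37 and 6.46 in animals 5 and 10. In adipose tissue it was 1.56 in animal 2, 1.74 in animal 4 and 3.95 in animal 8, between 4.22 and 6.57 in animals 1, 3, 7 and 9, and 6.59, 6.62 and 7.03 in animals 5, 6 and 10. Animals 2 and 4 were lowest and animal 10 was highest in both tissues. Muscle had a mean of 4.28 ± 1.97 and fat one of 4.80 ± 1.99 (SD, n = 10).

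All genes tested were ranked by their likeness to Dbp, taken as the smaller of the r over 10 muscle libraries and the r over 10 adipose libraries. Per3 ranked first of 13805 genes and Nr1d1 second, Nr1d2 was at rank 7, Tef at 18, Per1 at 39 and Per2 at 189. All ranks use 10 animals and were not computed without animals 2 and 4. Without these, r of Dbp with Tef was 0.885 in muscle and 0.395 in adipose tissue. With Nr1d2 it was then 0.833 and 0.571, and with Per2 0.0355 and 0.859. The nearest genes that are not among the 10 were ENSRNOG00000042717, with r = 0.815 in muscle and 0.924 in adipose tissue, and ENSRNOG00000012880, with 0.812 and 0.869. In the opposite direction, ranked by the larger of both r, Arntl was first, Npas2 was at rank 79 and Clock at 133. Without animals 2 and 4, Npas2 with Dbp had r = -0.75 in muscle and -0.172 in adipose tissue. Clock with Dbp then had -0.134 and -0.743. After Arntl came ENSRNOG00000049422, with r = -0.892 and -0.802, and ENSRNOG00000000579, with -0.901 and -0.787. Names of these identifiers were not given in the sources used here, and likeness to Dbp was given no test.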

How the data were processed

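Poly(A) RNA was sequenced per rat from 10 mg muscle and 30 mg fat samples (300 ng of RNA per library), per the labels' protocols. Per the submitters' processing notes, rn6 was the assembly and bcl2fastq, STAR and featureCounts were used, with no versions; annotation, strand setting and multi-mapping rules are not given in these sources. The authors deposited expected counts per gene, not normalised and often not whole; these were rounded. The genes and lists were chosen with earlier results of these data known.

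Counts were tested in R 4.3.3 with edgeR 4.0.16 (filterByExpr, TMM, robust quasi-likelihood test, Benjamini-Hochberg adjustment over 13806 genes, no animal block); DESeq2 1.42.0 was an alternative. Log2 CPM used a prior count of 2. Correlations used 100000 permutations, and exact ones below 10 animals. Their p-values, and those of spread, were adjusted over all genes rather than over the 10, as first planned. The p-values of relations with total counts and TMM factors were adjusted over those 10 relations alone. In the alternatives, genes with an absolute r below 0.45 were not permuted and counted as not called. The edgeR test, the correlation test and the test of spread were tested on simulated data. Numbers pair the tissues by the labels. Deviations of same-numbered libraries had r from -0.16 to 0.25, with a median of 0.06, against -0.01 between animals. Of the 10 muscle libraries 2 were closest to the adipose library of their number, and likewise 2 of the 10 adipose libraries. The pairing thus rests on the labels. The named genes were the 10 members and, by rule, those most like Dbp. Lists of other clock genes and of cell type markers had symbols only, and 0 matched, so they could not be run.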

Additional observations from a re-analysis of the deposited data

Results flagged for a closer look

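In 20 groups of 10 libraries (10 genes in each tissue, on the log2 CPM scale), 3 had a highest or lowest library whose gap to its neighbour, divided by the range of the group, exceeded the 95% limit of Dixon's test; by chance about 1 of 20 such groups is picked out. Nr1d2 in the adipose library of animal 2 stood at 3.53, next to 5.02 in animal 1, a share of 0.608 of the range. Tef in the muscle library of animal 2 stood at 6.35, next to 7.49 in animal 8, a share of 0.585. Npas2 in the adipose library of animal 4 stood at 3.43, next to 1.497 in animal 2, a share of 0.505.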

How the results depend on the processing

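The number of genes called between the tissues, 11011, stayed within 1.5 times under all alternatives run. The directions of the small fold changes did not. With library totals, log2 fold changes turned to -0.61 for Arntl, -1.08 for Clock, -1.37 for Npas2, -1.25 for Nr1d1, -1.27 for Per1 and -1.19 for Per3. Dbp turned to 0.0107 with relative log expression factors, to 0.0049 without a filter, to 0.0106 with DESeq2, to 0.0461 with the animal as a block, to 0.18 without adipose libraries 1, 3 and 5 and to 0.10 without muscle library 2; Per1 turned to -0.0432 with the block, and Npas2 to -0.19 and -0.27 without those adipose libraries and that muscle library. Leaving out each animal in turn gave the difference in spread of Arntl from -0.0164 to 0.18, r between the tissues of Clock from -0.0037 to 0.19, the log2 fold change of Dbp from -0.0406 to 0.0471, the log2 fold change of Npas2 from -0.24 to 0.97, the difference in spread of Npas2 from -0.20 to 0.19, the log2 fold change of Nr1d1 from -0.0524 to 0.14 and the log2 fold change of Per1 from -0.0638 to 0.0568. The r between tissues of Clock turned to -0.15 without animals 1, 3 and 5. The number of pairs called in adipose tissue was 3 with TMM factors within each tissue, 0 without animals 1, 3 and 5 and 0 when any 1 animal was left out. Among the 10 genes the block changed no call other than those of Arntl and Per2. Without animal 4, Clock (log2 fold change 0.33, edgeR adjusted p = 0.0416) and Npas2 (0.97, 0.0195) also passed, and without animal 8 Per2 did (-0.36, 0.0422). The count of pairs below 0 without the 2 animals farthest from the median was added after seeing the data. The cause of these changes was not tested. At 10 animals no p from 100000 resamples could pass alone after adjustment over all genes, so counts of 0 for r say nothing about stability, and the reads of Npas2 and Arntl limit their precision.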
